A study of Mus musculus with 9 samples.

Results

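The genes for cytosolic ribosomal proteins were followed across the populations of activated hepatic stellate cells (aHSCs), the matrix-producing myofibroblasts of injured liver. Members were all gene probes whose symbol began with Rpl or Rps and a digit, or was Rpsa, Rplp0, Rplp1 or Rplp2, with the kinases named Rps6k left out. These were 105 of 45281 gene probes, for 71 of 30869 symbols. Of the 105 probes, 50 stood for the large subunit (32 symbols), 41 for the small subunit (28 symbols), 5 for the stalk (3 symbols) and 8 for paralogs of ribosomal proteins (7 symbols). The last was Rps19bp1, which is no ribosomal protein but is named after its partner Rps19. No probe carried the symbol Rpl5, Rpl7, Rpl8, Rpl10, Rpl11, Rpl13, Rpl15, Rpl23a, Rpl35a, Rpl36, Rpl37a, Rps27 or Rps28, so these genes were not analysed here.

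Each of 9 arrays (Illumina MouseWG-6 BeadChips, which read labelled RNA on beads carrying 50-base probes) held aHSCs of WT1GFP/+ mice, in which GFP replaces a copy of the gene for the transcription factor WT1. The labels give every sample as male and of strain C57/Bl6, while the study's methods state that in vitro work used both sexes. WT1-high (GFP high; replicates 1, 8 and 29) and WT1-intermediate cells (GFP low; replicates 1, 8 and 30) were sorted directly from livers of adult mice made fibrotic by repeated carbon tetrachloride injection. WT1-negative cells (GFP negative; replicates 3, 11 and 14) were sorted after activation in culture on plastic for 7 days. Every population therefore carried only 1 intact copy of Wt1, and a population is defined by its GFP gate. The WT1-negative arrays alone came from culture and were deposited in a table of their own, so WT1 status, origin and array set cannot be told apart in any comparison with them.

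A ribosome consists of a small subunit, which decodes the mRNA, and a large subunit, which joins amino acids, each built from ribosomal RNA and proteins. A flexible stalk of Rplp0, Rplp1 and Rplp2 on the large subunit recruits the translation factors that use GTP. Most of these proteins occur as a single copy in each ribosome, and their mRNAs are among the most abundant of growing cells. These mRNAs typically begin with a cytosine followed by a run of pyrimidines, the 5′ terminal oligopyrimidine (TOP) motif, through which mTORC1, a kinase complex that senses nutrients and growth factors, controls their translation.

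The array reads each gene through short stretches of its mRNA. Probes with large rises are printed first, from the probe column of the deposited tables, since the main differences rest on these letters (50 bases each, sense strand, all in lower case).
Rpl22l1 ILMN_2678755: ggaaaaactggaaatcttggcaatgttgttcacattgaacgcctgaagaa
Rps3a ILMN_2733330: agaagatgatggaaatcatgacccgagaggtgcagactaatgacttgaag
They held 40% and 44% G and C, against a median of 56% over the 92 members tested.

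For Rps3 and Rps2 a pair of probes to the same mRNA gave different answers, and both are printed for comparison.
Rps3 ILMN_2637639: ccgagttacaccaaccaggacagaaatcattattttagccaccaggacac
Rps3 ILMN_2594103: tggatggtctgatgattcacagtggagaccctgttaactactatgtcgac
Rps2 ILMN_2946616: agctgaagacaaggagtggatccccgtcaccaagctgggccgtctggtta
Rps2 ILMN_2717549: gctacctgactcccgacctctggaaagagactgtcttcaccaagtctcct
Both Rps3 probes held 46% G and C, and the Rps2 probes 58% and 54%.

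Start sites were taken from RefSeq (build GRCm38.p6), which had an entry for 54 of the 71 member symbols. A stretch of 8 or more C or T that covered any of the first 5 transcribed bases, on the strand of the gene, was found in 18 of these 54 symbols (33.3%), against 1897 of 27025 genes in the table (7.02%) and 2 of 69 genes for mitochondrial ribosomal proteins (2.90%). For the ribosomal proteins of the core list alone it was 17 of 47 (36.2%). The windows of 40 bases centred on the start are printed for 4 members with such a run and, for contrast, for Rps3, with the pyrimidine run in capitals.
Rpl13a, chr7:45128726-45128765, minus strand: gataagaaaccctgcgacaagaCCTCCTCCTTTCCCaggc
Rpl35, chr2:39005112-39005151, minus strand: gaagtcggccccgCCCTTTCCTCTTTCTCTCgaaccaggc
Rps6, chr4:86857348-86857387, minus strand: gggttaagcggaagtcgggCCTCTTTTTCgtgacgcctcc
Rpl22l1, chr3:28805488-28805527, plus strand: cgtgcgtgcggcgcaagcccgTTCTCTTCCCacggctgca
Rps3, chr7:99483690-99483729, minus strand: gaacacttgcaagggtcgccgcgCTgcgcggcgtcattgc
A run in this window is a match of letters, and no match says only that the letters are not in the window.

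The arrays detected 17253 to 19774 probes each (38.1% to 43.7%), with mean signals of 147 to 289. The labelled cell type was checked on 18 stellate cell genes, of which 14 to 15 were detected on all arrays of each population. Their intensities summed to 23606 to 32911.7 in WT1-high, 18706 to 21740.7 in WT1-intermediate and 16268.5 to 21155.5 in WT1-negative cells. Among genes that mark other cells, 16 macrophage genes summed to an intensity of 3738 to 9555 in WT1-high, 6637 to 18516 in WT1-intermediate and 50620 to 54123 in WT1-negative cells. Such sums are led by the brightest genes of a list. Against WT1-negative cells 2 of the 16 were called higher and 11 lower in WT1-high (all probes 26.5% and 33.1%). In WT1-intermediate cells 4 were higher and 6 lower (all probes 24.4% and 33.6%). In the same order of populations, 9 mesothelial genes summed to 32055 to 44604, 9734 to 24132 and 67.1 to 126, and 5 of them were detected on no WT1-negative array. The sums for 10 hepatocyte genes were 916 to 3959, 1060 to 2055 and 131 to 153, and for 8 lymphocyte genes 517 to 893, 297 to 714 and 28.4 to 46.8. For 10 endothelial genes they were 1040 to 1709, 855 to 2066 and 1417 to 1902. The sums for 19 cell cycle genes were 584 to 1354, 276 to 611 and 5876 to 7055. Biotin control spots, which do not depend on the RNA, read 4399 to 4876 on the in vivo and 2872 to 3134 on the in vitro arrays. The part of these differences in the results below was not tested.

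Ribosomal protein mRNAs were among the brightest signals of every population. Of the 105 member probes, 85 to 91 were detected on each array, and 45 to 52 lay among its 500 brightest gene probes. They held 4.31% to 7.56% of the background-subtracted signal of an array, lowest on WT1-high replicate 8 and highest on WT1-intermediate replicate 30. On the WT1-negative arrays this share was 5.72% to 5.91%, inside the range of the in vivo arrays. The median member sat at the 98.8th to 99.4th percentile of an array's intensities, and the brightest one reached 11368 to 15680.

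Detection on at least 3 arrays (deposited detection p below 0.05) was required for testing, and 92 member probes for 66 symbols met it, together with 20573 probes in all. The 13 others were the only probes of Rpl17, Rpl39l, Rps20 and Rps23, both probes of Rps18, 2 of 3 for Rpl37, and 1 each for Rpl18, Rps24, Rps27a, Rpsa and Rplp2. Since a probe can meet this minimum through a single population, counts below refer to the probes tested and not to all members. Levels are log2 of intensity after background correction and quantile normalization with limma's neqc, and a difference is one of group means on that scale. A probe was called where its limma p, adjusted by Benjamini-Hochberg over the 20573 probes, was under 0.05. The 6 in vivo arrays came from 3 animals. For the WT1-negative arrays the labels name no animals, so the p-values measure the spread between these arrays. A fall in a bulk population can mean less RNA in each cell or fewer cells that hold it, which cannot be told apart.

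Setting WT1-high beside WT1-intermediate cells addressed whether the populations that express WT1 at different strength differ. Here 2 of 92 ribosomal protein probes (2.17%) were called, against 3.55% of all probes tested. With the replicate number as a fixed block, which rests on replicates 1 and 8 as described below, these were 2 of 89 (2.25%) and 9.17%. With the number as a random block they were 2 of 92 and 8.52%. By limma 0 were higher (0.904% of all probes) and both were lower in WT1-high cells (2.64%), and at an unadjusted p under 0.05 the counts were 0 and 4. The median difference was -0.13, against 0.05 over all probes, and 89 members lay within 0.5 of 0. Only 1 member exceeded 1 in size (3.0% of all probes), and the groups did not overlap for 8 (20.1%). The sign of the median depended on scaling, since median scaling in place of quantile normalization moved it to 0.35 while moving all probes to 0.45. It was -0.01 without WT1-high replicate 8, the array on which the members sat lowest.

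That array stood apart among the members. Taking each probe's deviation from its mean over the 9 arrays, the member median was -0.22 on WT1-high replicate 8, against -0.04 and 0.08 on WT1-high replicates 1 and 29. On the other 6 arrays it lay between 0.02 and 0.06. The median SD of a member across the WT1-high arrays was 0.23 (all probes 0.20), 0.13 in WT1-intermediate (all probes 0.23) and 0.10 in WT1-negative cells (all probes 0.16).

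The larger of the 2 falls was in Rps4y2 (ILMN_2737090), whose symbol is an older name for the Rps4x paralog Rps4l and which RefSeq lists as a non-coding RNA. It had log2 levels of 4.64, 5.35 and 5.22 in WT1-high, 6.06, 6.09 and 6.25 in WT1-intermediate, and 6.62, 6.17 and 6.89 in WT1-negative cells. All WT1-high arrays lay below all others, while the other populations overlapped. The difference of WT1-high from WT1-intermediate cells was -1.06 (SE 0.22; limma Benjamini-Hochberg adjusted p 0.0262), and from WT1-negative cells it was -1.49 (adjusted p 0.000159). The first call held in 13 of 23 alternative settings. It was lost without WT1-intermediate replicate 1, 8 or 30 (limma adjusted p 0.0728, 0.0516 and 0.0576) and without WT1-high replicate 1 or 29 (0.0663 and 0.0529).

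The other fall was in a dim probe of Rps13 (ILMN_2482591), a small subunit protein. Its log2 levels were 5.15, 4.74 and 4.82 in WT1-high, 5.73, 5.56 and 5.84 in WT1-intermediate, and 5.00, 5.25 and 5.20 in WT1-negative cells. The WT1-intermediate arrays lay above all others. WT1-high differed from WT1-intermediate cells by -0.81 (SE 0.16; Benjamini-Hochberg adjusted p 0.0209 in limma), which held in 15 of 23 settings and was lost without WT1-intermediate replicate 1 or WT1-high replicate 8 or 29 (limma adjusted p 0.0702, 0.0884 and 0.0714). The brighter Rps13 probe (ILMN_2940017) differed by -0.20 (limma adjusted p 0.622) between these populations, with overlapping arrays.

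The replicate number as a fixed block, which leaves a single residual degree of freedom and 1 common SE of 0.246, changed which members were called. Numbers 29 and 30 each stand on a single array in it, so its differences rest on replicates 1 and 8 only. The dim Rps13 probe then gave -0.70 (limma Benjamini-Hochberg adjusted p 0.0505) and was not called, whereas it was with a random block (0.00552) and with blocks by column name, which pair replicates 29 and 30 (0.0102). Rpl38 (ILMN_2594971) was called in the fixed block (-0.78; limma adjusted p 0.0207) but not without it (-0.34; 0.717). The arrays that this block leaves out went the other way, at 8.17 on WT1-high replicate 29 and 7.63 on WT1-intermediate replicate 30. Rps25 was called with blocks by column name (-0.61; 0.0331) and not without (0.178). Rps4y2 was called under each of these blocks.

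**Figure D1:**
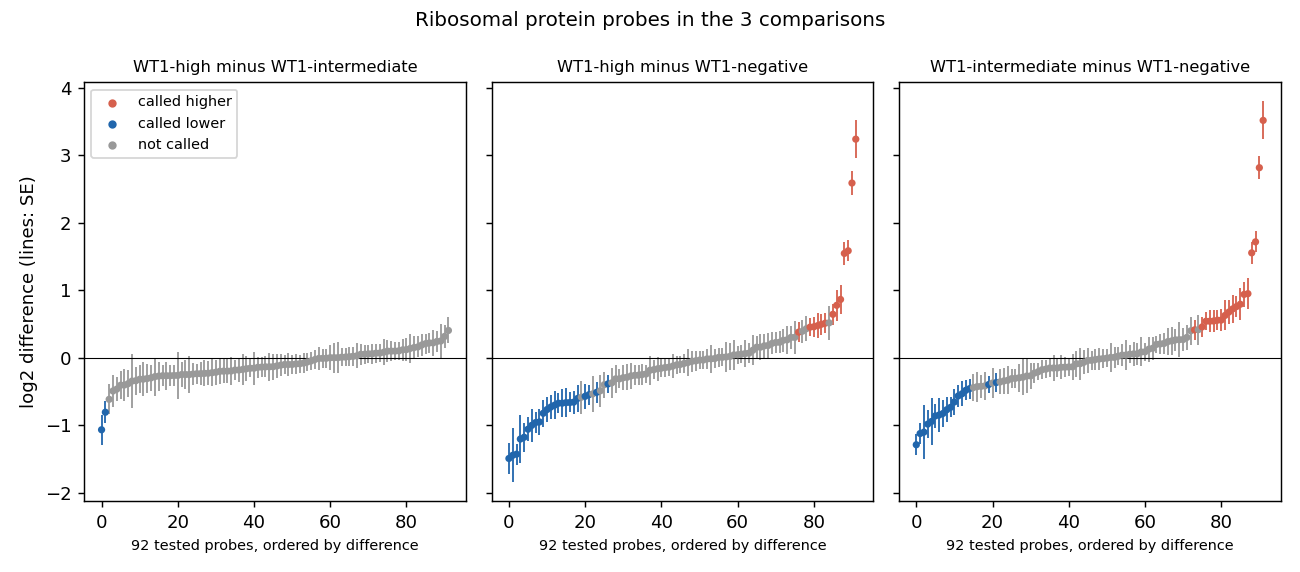
Log2 difference (vertical axis) of the 92 tested ribosomal protein probes, ordered by size within each of the 3 comparisons, with lines of 1 SE and colours for the limma calls. Most probes lie near 0, 2 are called between the WT1-positive populations, and 4 probes stand above 1.5 against WT1-negative cells in each comparison.

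The comparisons with WT1-negative cells set the WT1-positive populations from fibrotic liver beside aHSCs activated in culture. Both use the same WT1-negative arrays, so their values are given side by side and their likeness is not a result. In WT1-high cells 36 of 92 ribosomal protein probes (39.1%) were called, against 59.6% of all probes. Of these, 13 were higher (26.5% of all probes) and 23 lower (33.1%). In WT1-intermediate cells 35 of 92 (38.0%) were called, against 58.0% of all probes, with 18 higher (24.4% of all probes) and 17 lower (33.6%). The split depended on scaling. For WT1-intermediate cells it was 5 higher and 33 lower under median scaling, 8 and 30 under median scaling without background correction, and 22 and 11 under cyclic loess. Calls over all 20573 probes moved as well, from 11935 (5029 higher) to 11001 (2545), 9563 (2170) and 11448 (5857) in that order. For WT1-high cells it was 13 and 12 under median scaling without background correction, an alternative chosen after seeing the data. Under it 9117 of all probes were called (4568 higher), against 12258 (5443 higher) in the main fit.

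Differences of the members were mostly small. The median was -0.09 in WT1-high (all probes -0.10) and -0.04 in WT1-intermediate cells (all probes -0.13), and these signs turned to 0.06 under median scaling without background correction and to 0.15 under cyclic loess. The median size was 0.31 against 0.60 over all probes for WT1-high cells. Within 0.5 of 0 lay 59 and 63 of 92 members, against 43.1% and 44.4% of all probes. Over 1 in size were 10 members for WT1-high (29.7% of all probes) and 7 for WT1-intermediate cells (27.9%). The groups did not overlap for 45 (68.4%) and 54 members (65.5%).

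Bright probes have smaller relative error, so members were also set beside other probes above a common floor. The floor was the lower quartile of the members' mean levels, and brightness above it was not matched. Among the 69 members with a mean log2 level of at least 7.71, 39.1% and 37.7% were called against WT1-negative cells, where 66.4% and 62.9% of all probes at or above that level were. Between the WT1-positive populations 0 of these 69 members and 4.89% of such probes were called by limma, and 2 of the 69 had an unadjusted p under 0.05.

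Of 46 large subunit probes, 8 were higher and 10 lower in WT1-high than in WT1-negative cells (all probes 26.5% and 33.1%). In WT1-intermediate cells 10 were higher and 9 lower (all probes 24.4% and 33.6%). For the Rpl30 probe with the larger rise (ILMN_2878424, chromosome 15) the log2 levels were 7.53, 6.98 and 7.74 in WT1-high, 7.59, 7.25 and 7.92 in WT1-intermediate, and 6.59, 6.43 and 6.88 in WT1-negative cells. Each WT1-positive array exceeded all WT1-negative ones, with differences of 0.78 and 0.95 (SE 0.23; limma Benjamini-Hochberg adjusted p 0.0127 and 0.00437). The WT1-high call was lost without replicate 29 (limma adjusted p 0.0506), and the WT1-intermediate one under median scaling, with (0.30; 0.229) or without background correction (0.25; 0.0685). The other Rpl30 probe gave 0.43 (limma adjusted p 0.0609) and 0.68 (0.00793). Smaller rises called in both populations were those of Rpl7a (0.38 and 0.46) and of 1 of 2 Rpl4 probes. No WT1-negative array read that Rpl4 probe (ILMN_2631003) above background, and it was at least 1.05-fold and 1.13-fold higher. Also called were 2 of 4 Rpl27a probes (WT1-high 0.65 and 0.51, WT1-intermediate 0.55 and 0.41). These share at least 20 bases with each other, and ILMN_1221403 among them was detected on 1 WT1-negative array. The brighter Rpl27a probes gave 0.18 and -0.29 in WT1-high and 0.30 and -0.13 in WT1-intermediate cells, not called. For Rpl23, 2 of 4 probes rose (WT1-high 0.46 and 0.48, WT1-intermediate 0.54 and 0.94). The Rpl23 probe with the largest of these values (ILMN_2946482) shares a stretch of at least 20 bases with a probe for Ifngr2 and is uncertain.

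Rpl13a fell with the smallest adjusted p among large subunit probes lower than in WT1-negative cells. It is a protein that can also leave the ribosome to silence inflammatory mRNAs, and it often serves as a reference gene. Its log2 levels (ILMN_2707834, chromosome 7) were 8.68, 8.73 and 9.03 in WT1-high, 8.55, 8.83 and 8.57 in WT1-intermediate, and 9.67, 9.87 and 9.77 in WT1-negative cells. All WT1-negative arrays lay above the others, and the differences were -0.96 and -1.12 (SE 0.15; limma Benjamini-Hochberg adjusted p 0.000278 and 9.92e-05).

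Rpl38, which in mice is needed for the translation of a set of Hox mRNAs, had the fall of largest size among large subunit probes in WT1-high cells, but on a variable probe (ILMN_2594971, chromosome 11). Its log2 levels were 7.31, 6.22 and 8.17 in WT1-high, 8.05, 7.04 and 7.63 in WT1-intermediate, and 8.69, 8.57 and 8.77 in WT1-negative cells. The WT1-negative arrays were highest and close to each other, while the WT1-high arrays spread over more than 1 unit. The differences were -1.44 and -1.10 (SE 0.40; limma Benjamini-Hochberg adjusted p 0.00912 and 0.0347). The WT1-intermediate call was lost without WT1-intermediate replicate 8 or 30 (limma adjusted p 0.128 and 0.063) and without WT1-negative replicate 3, 11 or 14 (0.0724, 0.0594 and 0.0821). This probe begins 28 bases before the RefSeq start of Rpl38, with 22 of its bases in the transcript as annotated, and the other Rpl38 probe (ILMN_3135931) gave -0.53 and -0.29, neither called.

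For Rpl29, which also binds heparin, the log2 levels (ILMN_2730005, chromosome 9) were 7.88, 8.73 and 8.95 in WT1-high, 8.18, 9.12 and 9.04 in WT1-intermediate, and 10.06, 10.02 and 9.07 in WT1-negative cells. WT1-negative replicate 14 sat near the WT1-positive arrays and below 1 of those from WT1-intermediate cells. The differences were -1.20 and -0.94 (SE 0.35; limma Benjamini-Hochberg adjusted p 0.0118 and 0.0379). The first call was lost without WT1-high replicate 1 (limma adjusted p 0.0502), and the second without WT1-negative replicate 3 or 11 or WT1-intermediate replicate 1 (0.124, 0.117 and 0.144). Rpl35, at the exit of the tunnel through which the new protein leaves, was lower by -0.95 and -0.65 (limma adjusted p 0.00145 and 0.0134). Also lower in both populations were Rpl18 (-0.55 and -0.46), Rpl27 (-0.73 and -0.53), 1 of 2 Rpl28 probes (-0.60 and -0.82) and 2 of 3 Rpl31 probes (WT1-high -0.67 and -0.51, WT1-intermediate -0.73 and -0.56), and Rpl34 was called lower in WT1-high cells alone (-0.70; limma adjusted p 0.0138) with -0.29 in WT1-intermediate cells.

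Large subunit members with little difference included the brightest ones. Rpl41, the smallest ribosomal protein, differed by 0.01 and 0.05, Rpl3, at the peptidyl transferase centre, by -0.01 and 0.09, and Rpl9 by -0.03 and -0.14, none of them called.

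Of 34 small subunit probes, 3 were higher and 8 lower in WT1-high than in WT1-negative cells (all probes 26.5% and 33.1%). In WT1-intermediate cells 5 were higher and 6 lower (all probes 24.4% and 33.6%). Rps3a (ILMN_2733330, chromosome 3), which contacts the initiation factor eIF3, rose most. Its log2 levels were 11.29, 11.09 and 11.32 in WT1-high, 11.53, 11.50 and 11.34 in WT1-intermediate, and 8.88, 8.28 and 8.76 in WT1-negative cells. The WT1-negative arrays lay more than 2 units below every other array. The differences were 2.59 and 2.82 (SE 0.17; limma Benjamini-Hochberg adjusted p 3.73e-07 and 2.55e-07), and the WT1-high arrays lay just below the WT1-intermediate ones (-0.23, not called; adjusted p 0.552).

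Rps3, which lines the entry of the mRNA channel and also takes part in DNA repair, gave a rise on only 1 of its 2 probes. For ILMN_2637639 (chromosome 7) the log2 levels were 11.72, 11.99 and 11.99 in WT1-high, 11.97, 11.90 and 11.86 in WT1-intermediate, and 10.64, 10.11 and 10.31 in WT1-negative cells. The differences were 1.55 and 1.56 (SE 0.17; limma Benjamini-Hochberg adjusted p 1.24e-05 and 1.45e-05), with all WT1-negative arrays below the rest. For ILMN_2594103 the levels were 12.15, 12.00 and 12.20 in WT1-high, 12.14, 12.10 and 12.06 in WT1-intermediate, and 12.17, 11.93 and 12.22 in WT1-negative cells. These arrays overlapped, and the differences were 0.01 and -0.01 (limma adjusted p 0.973 and 0.949). As printed above, the 2 probes target different stretches of the mRNA and have the same share of G and C.

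**Figure D2:**
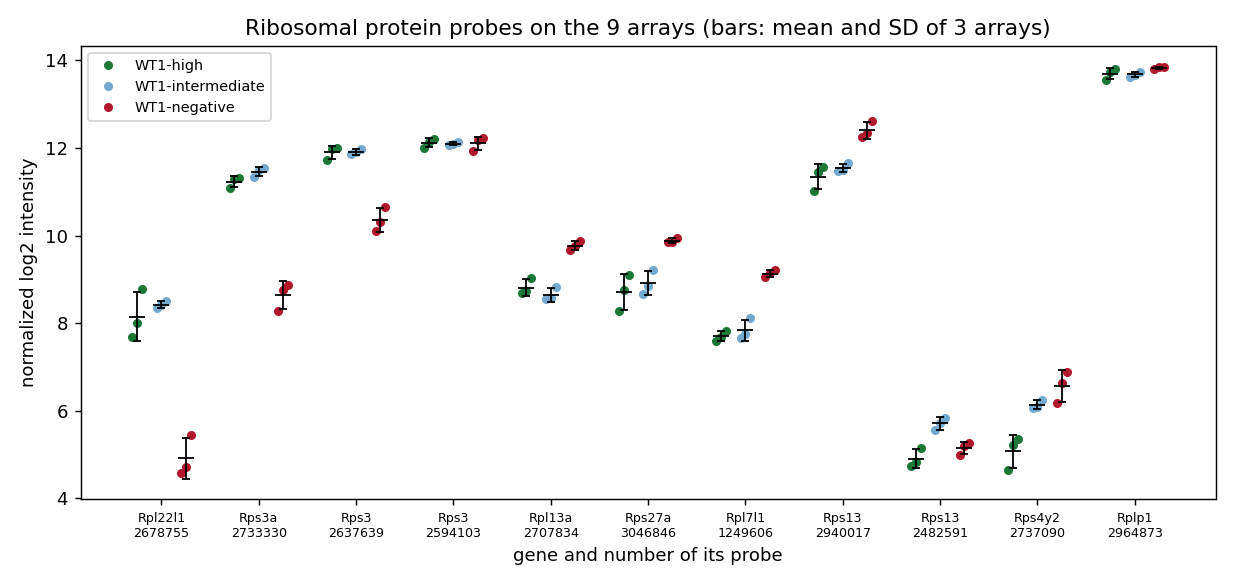
Normalized log2 intensity (vertical axis) of 11 ribosomal protein probes on each array, with points for arrays and bars for the mean and SD of the 3 arrays of a population. Rpl22l1, Rps3a and 1 Rps3 probe are low in WT1-negative cells, Rpl13a, Rps27a, Rpl7l1 and the bright Rps13 probe are high there, and the other Rps3 probe and Rplp1 are level.

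The bright Rps13 probe (ILMN_2940017, chromosome 7) had log2 levels of 11.46, 11.02 and 11.56 in WT1-high, 11.50, 11.65 and 11.49 in WT1-intermediate, and 12.24, 12.62 and 12.35 in WT1-negative cells. It was lower by -1.06 and -0.86 in the WT1-positive populations (SE 0.18; limma Benjamini-Hochberg adjusted p 0.000347 and 0.00152), with no overlap. The dim Rps13 probe described above rose in WT1-intermediate over WT1-negative cells (0.56, limma adjusted p 0.011), so the 2 probes were called in opposite directions in that comparison, the only gene among the members where this happened. The call of the dim probe was lost without WT1-negative replicate 3 (limma adjusted p 0.0509). The bright probe holds 70% and the dim one 46% G and C.

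Rps27a, made as a fusion with ubiquitin, had log2 levels (ILMN_3046846, chromosome 11) of 8.75, 8.28 and 9.10 in WT1-high, 9.20, 8.66 and 8.85 in WT1-intermediate, and 9.95, 9.85 and 9.86 in WT1-negative cells. All WT1-negative arrays were higher than the rest, with differences of -1.18 and -0.98 (SE 0.21; limma Benjamini-Hochberg adjusted p 0.000615 and 0.00219). Rps6, the protein phosphorylated by the S6 kinases downstream of mTORC1, was lower by -0.66 and -0.48 (limma adjusted p 0.00259 and 0.016).

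The Rps2 pair printed above also disagreed. One Rps2 probe (ILMN_2946616) was lower by -0.77 in both populations (limma Benjamini-Hochberg adjusted p 0.00373 and 0.00379), while ILMN_2717549 gave -0.08 and -0.30, not called. This second probe shares at least 20 bases with a probe for LOC666403.

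Among 19 member symbols with several tested probes (45 probes), the difference from WT1-negative cells ranged between probes of a gene by a median of 0.56 for WT1-high (up to 1.54) and 0.68 for WT1-intermediate cells (up to 1.57). All probes of a gene were called in 1 and 2 genes, some but not all in 14 and 13, and none in 4 and 4, where 59.6% and 58.0% of all probes were called. Between the WT1-positive populations the median range was 0.22, with at least 1 probe called in 1 gene (3.55% of all probes were called). The range between probes of other genes on the array was not measured.

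**Figure D3:**
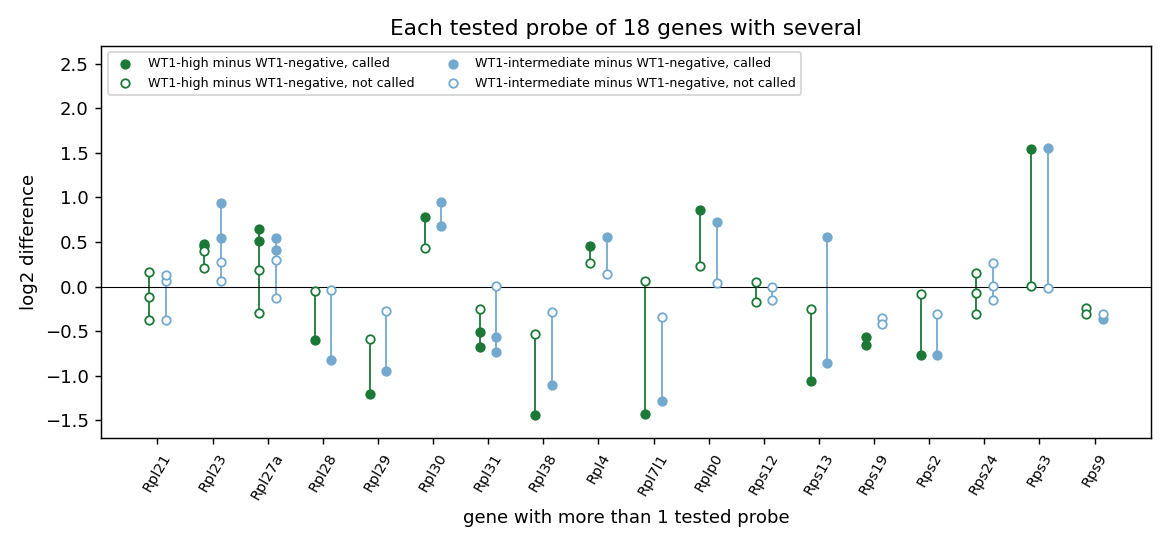
Log2 difference from WT1-negative cells (vertical axis) for each tested probe of 18 of the 19 ribosomal protein genes with several, with filled points for limma calls and a line joining the probes of a gene. In most genes a called probe stands beside one that was not called, and the Rps3 probes lie furthest apart.

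Ribosomal proteins that are mutated in inherited or acquired anemias of defective red cell formation gave 9 tested probes for 6 genes. In WT1-high cells 3 were lower than in WT1-negative cells (all probes 33.1%) and 0 higher (26.5%). In WT1-intermediate cells 0 were called by limma (all probes 58.0%), with 2 lower at an unadjusted p under 0.05. Rps26 had log2 levels of 11.73, 11.24 and 12.11 in WT1-high, 12.13, 12.02 and 12.08 in WT1-intermediate, and 12.51, 12.40 and 12.63 in WT1-negative cells. WT1-negative arrays were highest, and the differences were -0.82 and -0.44 (SE 0.20; limma Benjamini-Hochberg adjusted p 0.00423 and 0.0787).

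Rps19 was called lower in WT1-high cells on both probes. On ILMN_2862280 the difference was -0.57 (limma Benjamini-Hochberg adjusted p 0.021), which was lost without WT1-high replicate 8 (0.0781) or without WT1-negative replicate 3, 11 or 14 (0.0506, 0.0546 and 0.0517). In WT1-intermediate cells it was -0.36, not called. The second Rps19 probe (ILMN_2754355) was not above background on any WT1-high array and was at least 1.40-fold higher in WT1-negative cells (limma adjusted p 0.00637), but it lies wholly before the RefSeq start, from 160 bases upstream. Correcting the base composition of the probes, as described further on, ended both calls (-0.29 and -0.11; limma adjusted p 0.191 and 0.665). Rps7 (-0.10 and -0.21), Rps10 (-0.27 and -0.04), Rps14 (0.05 and 0.20) and the 3 Rps24 probes (-0.31 to 0.16, and -0.15 to 0.27) were not called.

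In the stalk, which recruits elongation factors, 1 of 4 tested probes was called. This held in each comparison with WT1-negative cells, where 59.6% and 58.0% of all probes were called. Rplp1 (ILMN_2964873, chromosome 9) had log2 levels of 13.73, 13.55 and 13.79 in WT1-high, 13.62, 13.74 and 13.67 in WT1-intermediate, and 13.85, 13.79 and 13.85 in WT1-negative cells. Its differences were -0.14 and -0.15 (limma Benjamini-Hochberg adjusted p 0.392 and 0.355). Rplp2 differed by -0.18 and 0.09, not called.

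Rplp0, which anchors the stalk and is a common reference gene, had 2 tested probes. The brighter one (ILMN_2744356) gave 0.23 and 0.04, not called. The dim one (ILMN_1249815) had log2 levels of 4.60, 5.22 and 5.45 in WT1-high, 4.95, 4.74 and 5.15 in WT1-intermediate, and 4.22, 4.21 and 4.25 in WT1-negative cells, where no array read it above background. The WT1-positive populations were higher by at least 1.40-fold (WT1-high) and 1.27-fold (WT1-intermediate; limma Benjamini-Hochberg adjusted p 0.00423 and 0.0117), but with 38% G and C its sign turned once probe base composition was corrected (-0.25 and -0.38, not called).

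Of 6 tested probes for genes used as expression references, which are Rpl13a, Rpl19, Rpl32, Rplp0 and Rps29, 1 was higher and 1 lower in each WT1-positive population, the Rplp0 and Rpl13a probes described above. Shares of all probes were 26.5% and 33.1% for WT1-high, and 24.4% and 33.6% for WT1-intermediate cells. Rpl19 differed by -0.26 and -0.02 and Rpl32 by -0.05 and 0.21, neither called. Rps29 had log2 levels of 13.30, 12.48 and 13.50 in WT1-high, 13.66, 13.26 and 13.56 in WT1-intermediate, and 13.58, 13.62 and 13.54 in WT1-negative cells. Its low value was on WT1-high replicate 8, and the differences were -0.49 and -0.09 (SE 0.24; limma Benjamini-Hochberg adjusted p 0.0965 and 0.771). Both Rps18 probes were too rarely detected to be tested. The Rps9 probe ILMN_1377921, which also serves as a housekeeping control of the array, differed by -0.24 and -0.31, not called.

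Paralogs, whose genes resemble that of a ribosomal protein and in some cases can take its place, gave 7 tested probes. Of these, 1 was higher and 4 lower in WT1-high than in WT1-negative cells (all probes 26.5% and 33.1%). In WT1-intermediate cells 2 were higher and 1 lower (all probes 24.4% and 33.6%). The rise of largest size among all members was that of Rpl22l1 (ILMN_2678755, chromosome 3), the paralog of Rpl22. Its log2 levels were 7.68, 8.00 and 8.77 in WT1-high, 8.41, 8.35 and 8.51 in WT1-intermediate, and 5.44, 4.58 and 4.71 in WT1-negative cells. Every WT1-positive array exceeded every WT1-negative one by more than 2 units. The differences were 3.24 and 3.52 (SE 0.28; limma Benjamini-Hochberg adjusted p 2.66e-06 and 1.77e-06).

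Rpl22 itself (ILMN_2659229, chromosome 4) had log2 levels of 9.05, 9.63 and 8.97 in WT1-high, 8.52, 9.25 and 9.13 in WT1-intermediate, and 8.37, 9.10 and 8.63 in WT1-negative cells. The populations overlapped, and the differences were 0.52 and 0.27 (SE 0.26; limma Benjamini-Hochberg adjusted p 0.102 and 0.384). The change of Rpl22l1 relative to Rpl22 was not tested.

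Rpl7l1, the paralog of Rpl7, had log2 levels (ILMN_1249606, chromosome 17) of 7.82, 7.68 and 7.60 in WT1-high, 8.11, 7.65 and 7.76 in WT1-intermediate, and 9.04, 9.14 and 9.20 in WT1-negative cells. The WT1-negative arrays were highest, with differences of -1.43 and -1.29 (SE 0.16; limma Benjamini-Hochberg adjusted p 1.55e-05 and 4.07e-05). The probe ILMN_2661407 for this gene gave 0.06 and -0.34, not called.

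Rpl36al, a copy of Rpl36a without introns, was lower in WT1-high cells (-0.67; limma Benjamini-Hochberg adjusted p 0.0167), a call lost without WT1-high replicate 8 (0.0666) and under the composition correction (-0.40; 0.125), with -0.33 in WT1-intermediate cells. Rps27l was likewise lower in WT1-high cells (-0.66; 0.0185), lost without WT1-high replicate 8 (0.0772) or WT1-negative replicate 3 (0.0677), with -0.42 in WT1-intermediate cells. Rpl3l, the form of Rpl3 found in striated muscle, was higher in WT1-intermediate cells (0.79; limma adjusted p 0.0146), lost without WT1-negative replicate 11 (0.0525), with 0.30 in WT1-high cells. Rps19bp1, the member that is no ribosomal protein, was lower by -0.999 and -0.85 (limma adjusted p 0.00472 and 0.0122).

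The differences from WT1-negative cells moved with the base composition of the probe. Across the 92 members the difference fell as the share of G and C rose, with a Pearson r of -0.50 for WT1-high (Spearman rho -0.48) and -0.42 for WT1-intermediate cells (rho -0.43). These are descriptions across probes of the same arrays, which are not independent replicates. Over all 20573 probes r was -0.25 and -0.27, and between the WT1-positive populations it was -0.26 for the members and -0.01 for all probes.

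For the 11 members with less than 46% G and C the median difference from WT1-negative cells was 0.46 in WT1-high (all probes 0.64) and 0.42 in WT1-intermediate cells (all probes 0.61), with 6 called higher and 0 lower by limma in each (7 and 6 higher and 0 lower at an unadjusted p under 0.05). Of all 2301 tested probes in this range, 1343 were called higher and 254 lower in WT1-high, and 1284 and 244 in WT1-intermediate cells. For the 35 members with at least 58% it was -0.29 and -0.27 (all probes -0.34 and -0.36). Subtracting each array's median deviation at each probe composition, a correction chosen after seeing the data, left 34 calls for WT1-high (12 higher, 22 lower) and 26 for WT1-intermediate cells (14 higher, 12 lower). Over all 20573 probes the same correction left 11615 (5128 higher) and 11361 calls (4755 higher), against 12258 and 11935 without it. Rpl22l1 then rose by 2.37 and 2.62, Rps3a by 2.00 and 2.23, and the Rps3 probe ILMN_2637639 by 1.28 in both, all still called. The differences of the 2 Rps13 probes between WT1-intermediate and WT1-negative cells were reduced to -0.29 and 0.29, neither called. Further calls were ended for Rpl29 (-0.77; limma adjusted p 0.0836) and Rpl38 (-0.93; 0.0692) in WT1-intermediate cells. The falls in WT1-high cells shrank to -0.94 for Rps4y2 and to -0.51 for the bright Rps13 probe, both still called. Others were called only after it, namely the dim Rps13 probe in WT1-high cells (-0.51; 0.024) and, in WT1-intermediate cells, Rps27l (-0.69; 0.0153), Rps14 (0.37; 0.0302), the Rps24 probe ILMN_3126986 (0.44; 0.0389) and the Rpl7l1 probe ILMN_2661407 (-0.52; 0.0388).

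**Figure D4:**
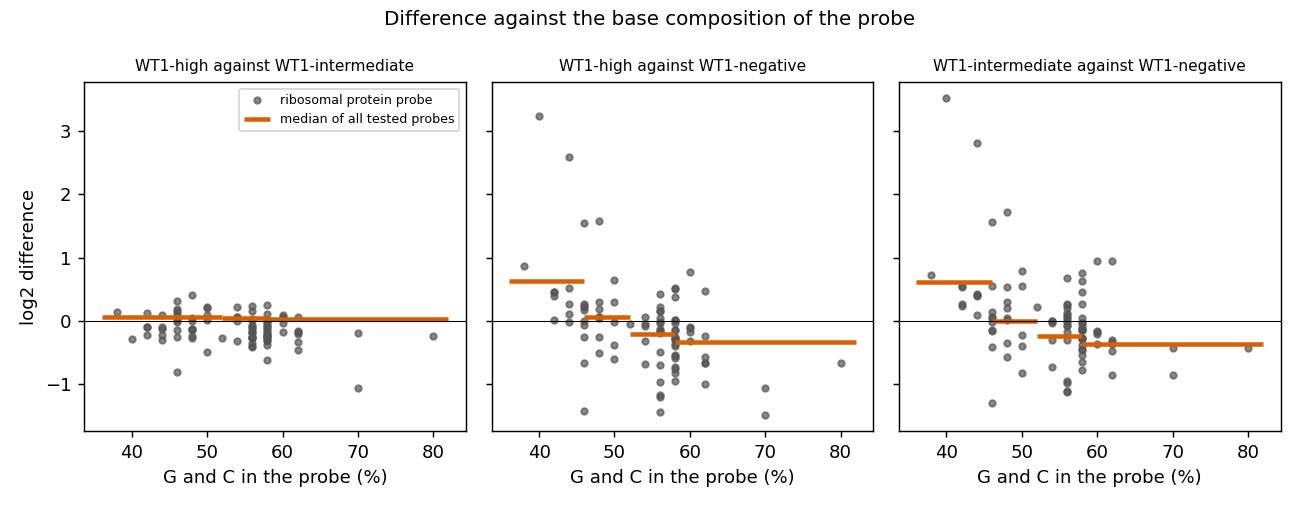
Log2 difference (vertical axis) of each tested ribosomal protein probe against its share of G and C (percent, horizontal axis) in the 3 comparisons, with orange lines for the median of all tested probes in 4 ranges of composition. Against WT1-negative cells both members and all probes are higher at low and lower at high shares of G and C, a trend not seen in all probes between the WT1-positive populations.

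The pyrimidine run at the start site was set beside the calls, with each symbol given by its brightest tested probe. Of 17 symbols with a run of 8 or more, 2 were higher (Rpl22l1 and Rpl7a) and 6 lower (Rpl13a, Rpl18, Rpl34, Rpl35, Rps26 and Rps6) in WT1-high than in WT1-negative cells, and 2 were higher and 4 lower in WT1-intermediate cells. Of 34 symbols with a shorter run, 1 was higher and 7 lower in WT1-high, and 4 were higher and 4 lower in WT1-intermediate cells. Among all probes 26.5% were higher and 33.1% lower in WT1-high, and 24.4% and 33.6% in WT1-intermediate cells. The medians of longer against shorter runs were -0.24 against -0.02 for WT1-high and -0.04 against -0.04 for WT1-intermediate cells. The difference between these classes was not tested.

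Further genes of the ribosome pathway were taken from fixed lists, each gene by its brightest tested probe. Between the WT1-positive populations limma called 0 of their 163 genes, against 3.55% of all probes tested, with 7 at an unadjusted p under 0.05. By the same measure 66 cytosolic ribosomal protein symbols had, against WT1-negative cells, 5 higher and 16 lower in WT1-high and 9 higher and 10 lower in WT1-intermediate cells. The 68 genes for mitochondrial ribosomal proteins, which build the separate ribosome of that organelle, had 6 higher and 42 lower in WT1-high and 7 higher and 41 lower in WT1-intermediate cells, with medians of -0.66 and -0.60. Among all probes 26.5% were higher and 33.1% lower in WT1-high, and 24.4% and 33.6% in WT1-intermediate cells. The cytosolic set against the mitochondrial one was not tested.

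Rack1, a scaffold on the small subunit that the array lists as Gnb2l1 (ILMN_2652645, chromosome 11), lies outside the symbol rule. Its log2 levels were 7.62, 7.71 and 8.19 in WT1-high, 8.66, 8.09 and 8.21 in WT1-intermediate, and 5.60, 5.25 and 5.55 in WT1-negative cells. The WT1-negative arrays lay below all others, with differences of 2.37 and 2.85 (SE 0.20; limma Benjamini-Hochberg adjusted p 2.49e-06 and 8.15e-07). Between the WT1-positive populations Gnb2l1 was called in the fixed replicate block (-0.71; limma adjusted p 0.0452) and not without it (-0.48; 0.26). That block rests on replicates 1 and 8 only.

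Of 17 translation factors, 8 were higher and 4 lower in WT1-high than in WT1-negative cells (all probes 26.5% and 33.1%). In WT1-intermediate cells 8 were higher and 5 lower (all probes 24.4% and 33.6%). Pabpc1, which binds the poly(A) tail, was higher by 1.75 and 1.74, Eif4b, which aids unwinding of the mRNA start, by 1.77 and 1.66, and Eif3h by 1.65 and 1.86 (limma Benjamini-Hochberg adjusted p between 4.16e-06 and 1.59e-05). Tpt1, another abundant TOP mRNA, was read above background on no WT1-negative array and was at least 2.48-fold and 3.07-fold higher, where the composition correction left log2 differences of 0.54 and 0.82 (limma adjusted p 0.00947 and 0.000729), below these bounds. The same correction left 0.90 and 0.77 for Eif4b and 1.16 in both for Pabpc1, still called.

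Of 47 ribosome assembly genes, 10 were higher and 12 lower in WT1-high than in WT1-negative cells (all probes 26.5% and 33.1%). In WT1-intermediate cells 9 were higher and 9 lower (all probes 24.4% and 33.6%). Rrn3, which starts transcription by RNA polymerase I, was higher by 1.42 and 1.36, Lyar by 1.30 and 1.60, and Emg1, a methyltransferase of the small subunit RNA, by 1.31 and 1.55. Rrp1b, a nucleolar protein, was lower by -1.42 and -0.86. All 8 values were called (limma Benjamini-Hochberg adjusted p between 7.9e-05 and 0.00434).

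Upstream of these genes, 16 members of the mTORC1 axis had 3 higher and 7 lower in WT1-high cells (all probes 26.5% and 33.1%). In WT1-intermediate cells 3 were higher and 5 lower (all probes 24.4% and 33.6%). The repressors of cap-dependent translation Eif4ebp1 (-1.77 and -1.54) and Eif4ebp2 (-1.08 and -1.20) were lower, as was the mTORC1 subunit Mlst8, listed as Gbl (-1.34 and -1.18; limma Benjamini-Hochberg adjusted p for the 6 values between 4.69e-05 and 0.00291). Of 8 genes of the Myc network 3 were higher and 2 lower in WT1-high, and 2 and 2 in WT1-intermediate cells. The Myc antagonist Mxi1 was higher by 2.31 and 2.46, the antagonist Mxd4 lower by -0.66 and -1.01, and the shared partner Max lower by -1.52 and -1.67. The composition correction left 1.41 and 1.54 for Mxi1 and -0.44 in WT1-high cells for Mxd4, still called. Myc itself was higher in WT1-high cells (0.74, limma adjusted p 0.0386) with overlapping arrays, lost without WT1-high replicate 1 or 29 (0.0771 and 0.152) or WT1-negative replicate 3 or 14 (0.131 and 0.075), and differed by 0.16 in WT1-intermediate cells, not called.

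Of 5 tested factors that bind ribosomal protein promoters, Sp1 was higher by 1.89 and 1.85 and Tbp lower by -0.65 and -1.03 in both populations. Gabpa was lower in WT1-intermediate cells (-0.66; limma Benjamini-Hochberg adjusted p 0.0442) and gave -0.51 in WT1-high cells, not called. The Gabpa call was lost without WT1-high replicate 1, WT1-intermediate replicate 1 or 8, or WT1-negative replicate 3 or 14 (limma adjusted p 0.053, 0.103, 0.105, 0.17 and 0.0861) and with a random replicate block (0.0613). With the composition correction Gabpa was called in both populations (-1.22 and -1.38; limma adjusted p 0.000909 and 0.000418), Sp1 was higher by 1.02 and 0.96, and Tbp lower by -0.43 in WT1-high cells.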

How the data were processed

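The authors deposited summary bead intensity values from Illumina BeadStudio, not normalized, with a detection p-value per probe, in separate in vivo and in vitro tables. Here the tables were joined on the probe. The deposited joined table held the same intensities (maximum difference 0). The in vivo column named 29 in the WT1-intermediate group was taken as the sample labelled replicate 30. Background was corrected with neqc (limma 3.58.1 in R 4.3.3) on 936 negative controls with an offset of 16, followed by quantile normalization and log2. Probes with a deposited detection p-value under 0.05 on at least 3 of 9 arrays were kept (20573 of 45281). One lmFit and eBayes model of the 9 arrays together (degrees of freedom 6 residual and 5.19 prior) gave the 3 comparisons, with p-values adjusted by Benjamini-Hochberg over all 20573 probes. The number of arrays limits the precision. This model held no block, so its p-values between the WT1-positive populations leave out that these 6 arrays came from 3 animals. Same-numbered WT1-high and WT1-intermediate arrays deviated together (correlations 0.35 and 0.34), as did replicates 29 and 30 (0.47), against -0.39 to 0.03 for the other 6 combinations. Blocks by replicate number were alternatives, and replicates 29 and 30 were paired only in the block by column names. Block values stand beside results whose call they change.

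Named members were the 5 largest called rises and falls of each comparison, the stalk, paralog, reference and anemia lists, and genes whose probes were called in opposite directions. From the other ribosome lists came the 3 called genes of largest size, a gene being given by its brightest tested probe. Some genes that these rules name are not reported here. The members and lists were chosen with earlier results of these data known. A probe not above background on every array of a group was given as a bound, the mean of the other group over the lowest signal detected. Promoter windows came from RefSeq, GRCm38.p6. On simulated arrays with the real spread, limma recovered 80%, 69% and 70% of probes changed by a log2 of 1 in WT1-high against WT1-intermediate, WT1-high against WT1-negative and WT1-intermediate against WT1-negative cells, and 98%, 100% and 98% of those changed by 2, with 8, 7 and 12 false calls among 20573 probes. Each simulation changed 100 probes by each size and drew the arrays independently. The real comparisons with WT1-negative cells held far more calls, and same-numbered in vivo arrays deviated together. These recovery and false call figures therefore hold for the simulated setting only. Alternatives covered scaling, background correction, offset, filter, samples in the fit, array weights, replicate blocks, probe choice and each array left out. Probe composition, a block by column names and median scaling without background correction were added after the data were seen.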

Additional observations from a re-analysis of the deposited data

How the results depend on the processing

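In WT1-high against WT1-intermediate cells, the 2 ribosomal protein calls became 0 under median scaling and without background correction, and 1 with an offset of 50, no filter, the compared groups alone, the brightest probe of each symbol, the core ribosomal protein genes only, or median scaling without background correction (this one higher). Leaving out each array gave 0 to 2 calls, with 0 without WT1-intermediate replicate 1 or WT1-high replicate 29 and 1 without WT1-high replicate 1 or 8 or WT1-intermediate replicate 8 or 30. The median of -0.13 became 0.35 under median scaling and 0.29 under median scaling without background correction, and lay between -0.19 and -0.008 with an array left out. Against WT1-negative cells, the 36 WT1-high calls became 22 under median scaling, 21 by the brightest probe, and 29 to 37 with an array left out, and the median 0.0568 under median scaling without background correction. The 35 WT1-intermediate calls became 19 by the brightest probe, 22 where 1.5-fold was also required, and 26 to 37 with an array left out. Their median became -0.42 under median scaling, 0.15 under cyclic loess, -0.0855 with detection on all 9 arrays, -0.22 under median scaling without background correction, -0.0143 with the probe composition correction, and -0.0687 to -0.0333 with an array left out. The Rplp0 probe ILMN_1249815 reversed under the composition correction (-0.25 and -0.38). Over all probes, the calls between the WT1-positive populations were 2684 under median scaling and 502 without background correction. Median scaling left 9598 of all probes called for WT1-high against WT1-negative cells. For WT1-intermediate cells the median over all probes became -0.44 under median scaling and -0.006 under cyclic loess. The cause of these changes was not tested. With the replicate number as a fixed block 2 of 89 members were called (median -0.17) and 1699 of 18532 probes, against 730 of 20573 without it. A random block gave 2, 36 and 36 members in the 3 comparisons (1752 of all probes in the first), blocks by column names 3 (1728) and the fixed block with composition correction 3 (1823). The random block added a call for the Rps19 probe ILMN_2754355 in WT1-intermediate cells (-0.44; limma adjusted p 0.0458), and blocks changed no other call of a named gene than this and those given in the report. Median scaling also ended the calls of ILMN_2862280 (Rps19), Rps27l, Mxd4 and Tbp in WT1-high and of Rpl3l and the dim Rplp0 and Rps13 probes in WT1-intermediate cells. Testing without a filter ended those of Rps4y2, Myc, Rpl29 and Rpl38, and in WT1-intermediate cells those of Gabpa and Rpl3l. Of the called values of genes named by rule, 23 of 36 for WT1-high and 24 of 32 for WT1-intermediate against WT1-negative cells kept their call under every alternative, as did 0 of 2 between the WT1-positive populations. Signal over background limits the dim probes, and differences of members against WT1-negative cells cannot be told apart from those of origin and array set.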
